A study of Mus musculus with 20 samples.

Results

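The 36 genes described here repair DNA double-strand breaks and interstrand crosslinks, or run the checkpoint that holds the cell cycle while this is done. They were taken by name, as the rows of the count table whose Entrez gene ID maps to 36 listed mouse symbols. All 36 were found among the 23373 gene IDs of the table, and all 36 were among the 14343 genes that passed the filter on low counts. By role they comprised 5 checkpoint genes, 6 genes of break sensing and end resection, 12 genes of homologous recombination, 5 genes of end joining and 8 genes of the Fanconi pathway and crosslink processing.

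RNA-seq counts came from Hepa-1 cells, a mouse hepatoma line, in 20 libraries that formed 10 groups of 2. Control-grown cells and cells grown in hexavalent chromium, Cr(VI), labelled 0.5 mM, were collected at passage 20 and at passage 25. Recovered cells, collected at passage 25, had spent 20 passages in Cr(VI) and 5 without it. Every growth history was then given either the solvent DMSO or benzo[a]pyrene (B[a]P), labelled 5 mM, for 8 hours. The doses are printed in the labels' unit, which could not be checked and may not be the one meant, since the study's title calls the Cr(VI) concentrations low. All groups share the 1 cell line, no genotype or transgene differs between them, and the labels do not say whether the 2 libraries of a group came from separate cultures, so the p-values cover the spread between duplicates only, which may be technical.

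A double-strand break is first bound by the complex of Mre11a, Rad50 and Nbn, which recruits the kinase Atm, while single-stranded DNA at resected ends or stalled forks activates Atr with its partner Atrip. Broken ends are either rejoined directly, with the Ku proteins Xrcc5 and Xrcc6, the kinase Prkdc and the ligase complex of Xrcc4 and Lig4, or copied from the sister chromatid by homologous recombination, in which Brca1, Palb2 and Brca2 act together. Interstrand crosslinks stop replication forks. The Fanconi core complex, whose E3 ligase subunit is Fancl, then attaches ubiquitin to Fancd2 and Fanci, and nucleases held by Slx4 cut the crosslink free. B[a]P is a ligand of the aryl hydrocarbon receptor, and its metabolites form bulky DNA adducts. Cr(VI) is reduced inside cells to species that give DNA adducts, crosslinks and breaks.

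Library totals were between 20976045 and 37930720 counts. Cyp1a1, the classic target of the aryl hydrocarbon receptor, was at 25.1 to 62.4 CPM, counts scaled to the library's total, in the DMSO libraries. It was at 930.2 to 2089 CPM in the B[a]P libraries. Cdkn1a, the other check gene for B[a]P, rose from 188.1 and 188.0 to 1066 and 1072 CPM in control-grown cells of passage 20. Cr(VI)-grown DMSO libraries of that passage held 560.4 and 694.3 CPM of it. In Cr(VI)-grown cells of passage 25 its values overlapped, with 289.4 and 490.9 CPM against 440.8 and 1593 CPM. Of 13 hepatocyte or hepatoma markers, 6 were above 1 CPM in every library, with Alb at 826 to 5698 CPM, while 4 never reached 1 CPM, among them Hnf4a. The 4 endothelial markers summed to at most 1.37 CPM. Markers of other cell types were not absent. The 7 fibroblast or stellate markers summed to 410 to 1603 CPM and the 4 cholangiocyte markers to 328 to 2033 CPM. The 5 macrophage markers summed to 60.9 to 136.6 CPM. The 6 replicate 2 libraries of passage 25 stood apart from replicate 1, with 14776 to 15329 genes detected against 16049 to 17173. Of the other libraries, Cr(VI)-grown DMSO replicate 2 of passage 20 differed over 2-fold from its partner in 32.2% of genes, against 1.6% to 2.4% in the other 3 groups of that passage. Cr(VI)-grown B[a]P replicate 1 of passage 25 had the lowest Cyp1a1 of the B[a]P libraries. It differed from its partner in 56.7% of genes, against 21% to 54.1% in the other 5 groups of that passage. Such a share is the same for both libraries of a group, so it does not tell which of the 2 is apart. These 2 single libraries are the ones not used in some fits below, a choice made after the data had been seen.

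Levels between genes were compared per transcript length, as CPM per kilobase (RPKM), in control-grown DMSO cells of passage 20. Xrcc5, a Ku subunit, was highest at 22.5 ± 0.75 RPKM (SD, n = 2), followed by Rbbp8, which starts end resection, at 13.3 ± 0.26, and by Fanci and Fanca at 11.8 ± 0.26 and 11.5 ± 0.47. Fanci and Fanca did not differ beyond this spread. The lowest were Prkdc, the catalytic kinase of end joining, at 1.12 ± 0.034 RPKM and the homologous recombination gene Rad51c at 0.301 ± 0.029. The partner subunits were thus not at equal RNA levels: Xrcc6 was at 7.87 ± 0.078 RPKM, under Xrcc5, and Lig4 at 1.39 ± 0.0030 was under Xrcc4 at 3.10 ± 0.35.

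**Figure D1:**
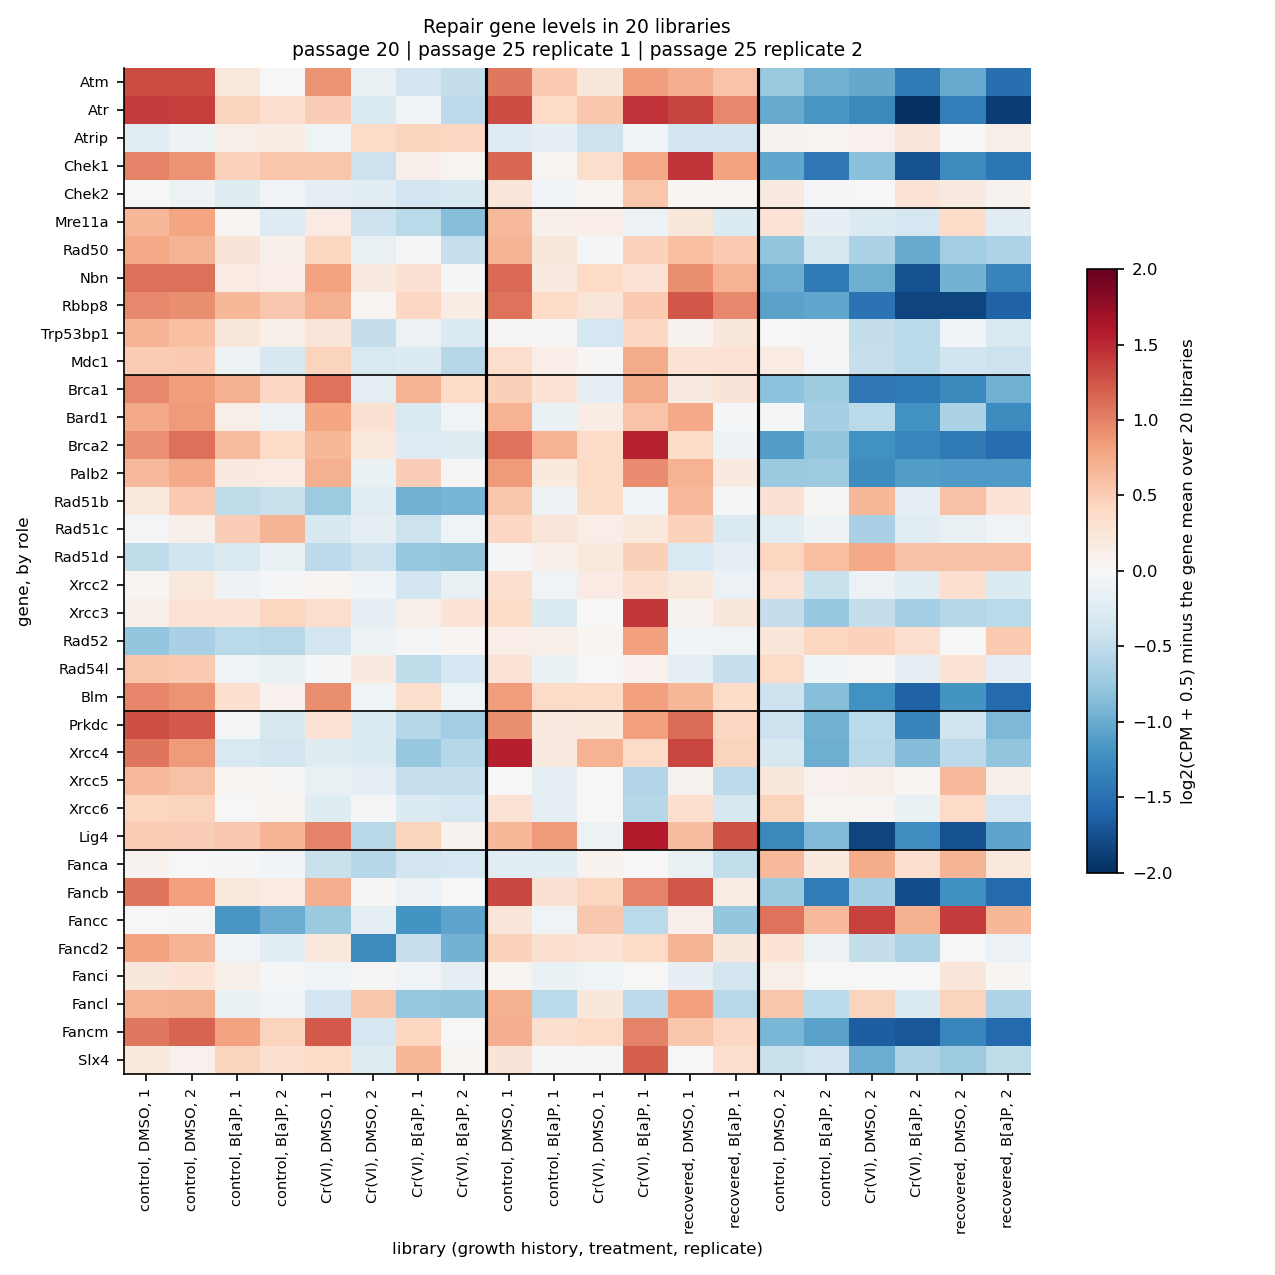
Level of each of the 36 genes in each of the 20 libraries, as log2(CPM + 0.5) minus the gene's mean over the libraries (red high, blue low). Rows are genes in order of role, columns are libraries, and the black vertical lines part passage 20, passage 25 replicate 1 and passage 25 replicate 2; the last block is mostly blue, with Fancc, Fanca and Rad51d as red rows.

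At passage 25 the 36 genes differed more between the replicate numbers than between treatments: the median member was lower in replicate 2 than in replicate 1 by -0.45 to -1.40 on the log2 scale, depending on the group. In replicate 2, 21 members were lower than in replicate 1 in all 6 groups, against 36.9% of all genes, and 6 were higher in all 6 groups, against 33.8% of all genes. Atr had 18.6 CPM in replicate 1 and 3.37 CPM in replicate 2 of control-grown DMSO cells, and its ratio of replicate 2 to replicate 1 was between 0.0459 and 0.303 over the 6 groups. Rbbp8 had ratios of 0.111 to 0.36 and Brca2 of 0.127 to 0.347. The 6 that were higher in replicate 2 were Fancc, with ratios of 1.7 to 2.86, Rad51d, Fanca, Xrcc5, Atrip and Fanci. Among the members with no such shift, Chek2, Fancl, Mre11a, Rad51b, Rad54l and Xrcc6 had ratios within 0.755 to 1.4 in every group. The labels name no difference between the replicate numbers, and their part in the results was measured by fitting with and without the replicate number as a term.

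Averaged over the 5 pairs of groups, B[a]P lowered 4 of the 36 genes and raised none. These were Fancl, the ubiquitin ligase of the Fanconi core complex, Rad51b, a gene of homologous recombination, Mre11a, the nuclease of break sensing, and Xrcc6, a Ku subunit. In edgeR's quasi-likelihood test with Benjamini-Hochberg adjustment over all genes at 0.05, lower calls made up 3.74% and higher calls 3.86% of all genes, so the 4 members (11.1%) were above the background share of lower calls and the members with a higher call (0%) below that of higher calls. The median log2 difference of the members was -0.26, against -0.0027 for all genes tested, and 28 of 36 were below 0, against 50.4% of all genes. The members' median was below 0 in all 20 fits without 1 library, but its size rested on single libraries. It was -0.47 without Cr(VI)-grown B[a]P and -0.39 without recovered B[a]P, both replicate 1 of passage 25. It was -0.15 without control-grown DMSO, -0.15 without Cr(VI)-grown DMSO and -0.10 without recovered DMSO, each replicate 1 of passage 25, and -0.17 without Cr(VI)-grown DMSO replicate 1 of passage 20. In this bulk RNA, fewer cells that express a gene and less RNA per cell cannot be told apart.

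Fancl was at 10.2 and 10.4 CPM in the 2 control-grown DMSO libraries of passage 20 and at 5.55 and 5.88 CPM with B[a]P. At passage 25 the control-grown values were 10.4 and 9.21 CPM with DMSO and 4.05 and 4.08 CPM with B[a]P, and the recovered values were 11.2 and 8.57 CPM against 4.01 and 3.85 CPM. After growth in Cr(VI), Fancl was at 4.59 and 9.21 CPM with DMSO and 3.43 and 3.39 CPM with B[a]P at passage 20, and at 7.30 and 8.59 CPM against 4.12 and 4.99 CPM at passage 25. DMSO and B[a]P libraries did not overlap within any growth history and passage. The log2 difference was -1.05 ± 0.15 (SE, n = 10 libraries a side), with an adjusted p of 0.000762 in edgeR, and all 20 fits that left out 1 library kept the call. Fancl was also the single member called in control-grown cells alone (-1.06 ± 0.24, adjusted p 0.0376 in edgeR, against 1.27% of all genes) and at passage 25 alone (-1.13 ± 0.19, adjusted p 0.00815 in edgeR, against 1.05%). The call in control-grown cells was lost in each of the 8 fits that left out 1 of its libraries (adjusted p 0.0836 to 0.19), and that at passage 25 was kept in all 12.

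Rad51b was at 3.23 and 4.14 CPM with DMSO and at 1.77 and 1.88 CPM with B[a]P in control-grown cells of passage 20. In Cr(VI)-grown cells of that passage it was at 1.46 and 2.28 CPM with DMSO and at 1.17 and 1.20 CPM with B[a]P. At passage 25 the 6 DMSO libraries lay between 3.49 and 4.63 CPM and the 6 B[a]P libraries between 2.37 and 3.42 CPM. Within each growth history and passage the B[a]P libraries were below both DMSO libraries. The difference was -0.71 ± 0.14 on the log2 scale, with an adjusted p of 0.00853 in edgeR, and all 20 fits without 1 library kept it.

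Mre11a was at 31.4 and 34.2 CPM with DMSO and 20.2 and 16.2 CPM with B[a]P in control-grown cells of passage 20, and at 22.0 and 14.6 CPM against 13.3 and 10.7 CPM after growth in Cr(VI). At passage 25 it went from 30.8 and 24.1 CPM to 21.0 and 17.5 CPM in control-grown cells and from 23.0 and 25.3 CPM to 16.0 and 16.8 CPM in recovered cells. In the Cr(VI)-grown cells of passage 25 the ranges overlapped, with 21.4 and 16.1 CPM against 17.99 and 15.4 CPM. The log2 difference over all settings was -0.54 ± 0.13, with an adjusted p of 0.0248 in edgeR. Xrcc6 was at 25.8 and 26.1 CPM with DMSO and 19.1 and 19.7 CPM with B[a]P in control-grown cells of passage 20, and its difference over all settings was -0.42 ± 0.11, with an adjusted p of 0.038 in edgeR. Neither call was firm: that of Mre11a was lost in 7 of the 20 fits without 1 library (adjusted p up to 0.089), and that of Xrcc6 in 18 of 20 (up to 0.12).

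**Figure D2:**
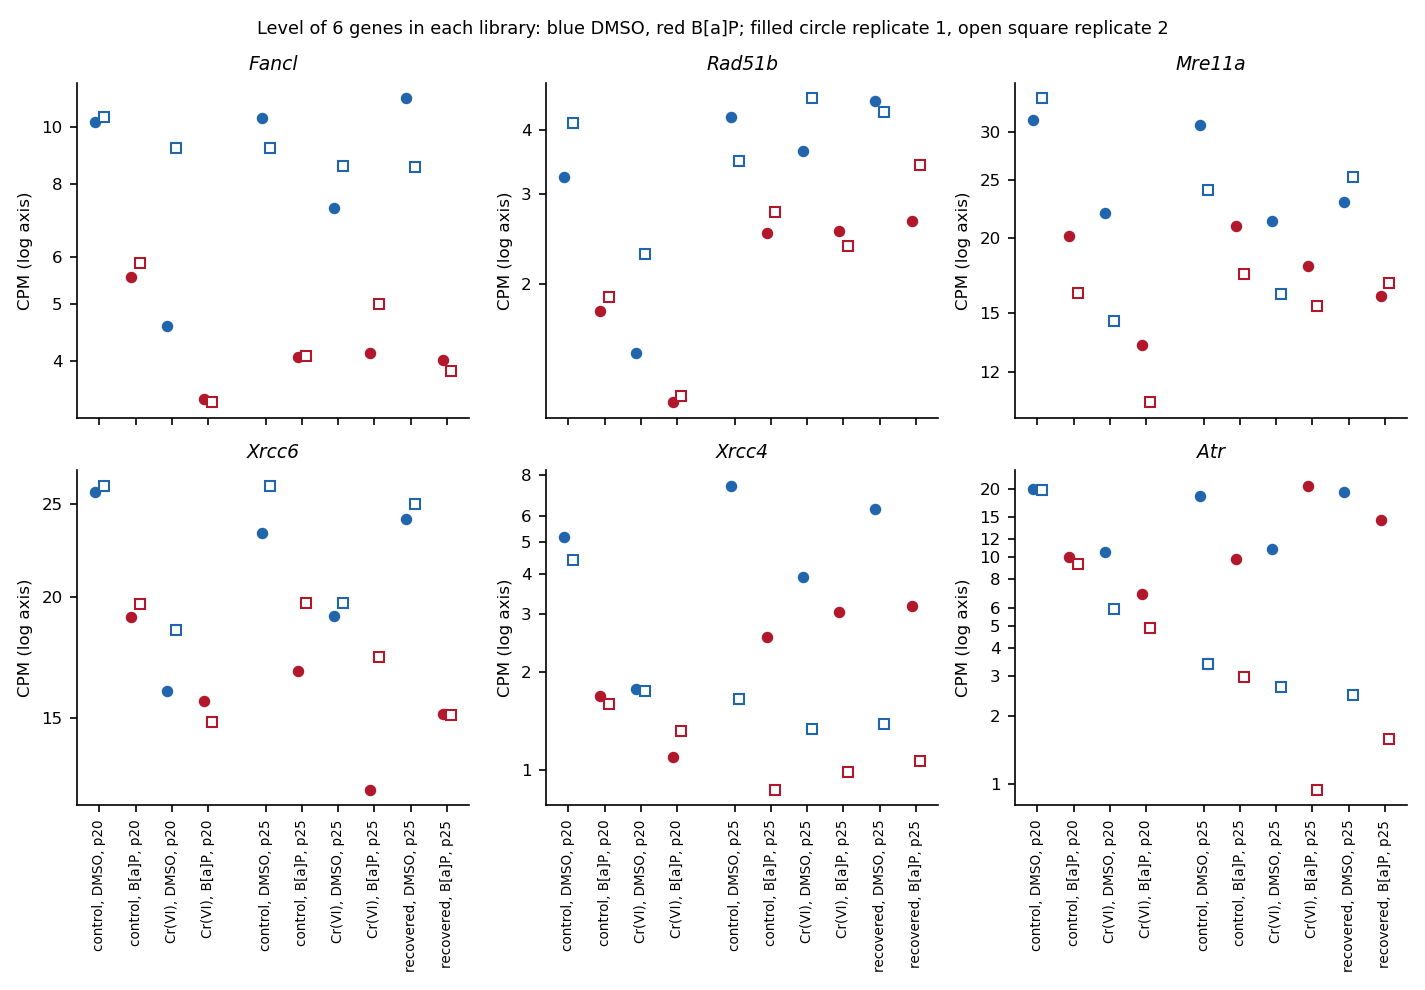
CPM on a log axis of Fancl, Rad51b, Mre11a, Xrcc6, Xrcc4 and Atr in every library, by growth history, treatment and passage (p20, p25), with blue for DMSO, red for B[a]P, filled circles for replicate 1 and open squares for replicate 2. The Fancl B[a]P points lie below the DMSO points of the same growth history and passage; for Xrcc4 and Atr the 2 replicates of passage 25 lie further apart than the treatments.

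At passage 25 the libraries with the same replicate number deviated together in every pair of groups, so a second fit took the replicate number of that passage as a block. With this replicate block 14 members were lower with B[a]P and none higher, against 13.5% and 13.4% of all genes. The 14 included the 4 above. End joining had the largest share by role, 4 of 5 genes: Xrcc4, the partner of DNA ligase IV, at -0.90 ± 0.12, Prkdc at -0.74 ± 0.14, Xrcc6 at -0.42 ± 0.08 and Xrcc5 at -0.39 ± 0.08 on the log2 scale, with adjusted p-values of 7.86e-05 to 0.00176 in edgeR. Lig4, the ligase itself, was the exception at 0.50 ± 0.19 (adjusted p 0.068).

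Among the Fanconi and crosslink genes 3 of 8 were lower with the block: Fancl, Fancc at -0.81 ± 0.11 and Fancb at -0.69 ± 0.17, which are all core complex subunits. The substrates of that complex, Fancd2 at -0.37 ± 0.17 and Fanci at -0.12 ± 0.07, did not pass (adjusted p 0.12 and 0.252 in edgeR), nor did the core subunit Fanca, the translocase Fancm or the nuclease scaffold Slx4, which was at 0.33 ± 0.14. Break sensing had 2 of 6 lower, Mre11a and its complex partner Nbn at -0.59 ± 0.12, whereas Rad50, the third subunit, was at -0.17 ± 0.12 with an adjusted p of 0.334 in edgeR. Trp53bp1, which protects ends from resection, was at -0.05 ± 0.11.

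Of the 12 homologous recombination genes 4 were lower with the block: Rad51b, Bard1 at -0.63 ± 0.13, Rad54l at -0.41 ± 0.09 and Xrcc2 at -0.31 ± 0.10. Brca1, the partner of Bard1 in a ubiquitin ligase, was at 0.07 ± 0.16 (adjusted p 0.774 in edgeR), and Brca2 was at -0.19 ± 0.14 (0.362). Other genes of the group were near 0, with Rad51c at 0.11 ± 0.16, Rad51d at 0.05 ± 0.09 and Xrcc3 at 0.12 ± 0.15. In the checkpoint group the kinase Atm was lower, at -0.56 ± 0.15 with an adjusted p of 0.0105 in edgeR. Atr at -0.49 ± 0.21, its effector Chek1 at -0.42 ± 0.17 and its partner Atrip at 0.19 ± 0.09 did not pass, with adjusted p-values of 0.0975, 0.0827 and 0.139.

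**Figure D3:**
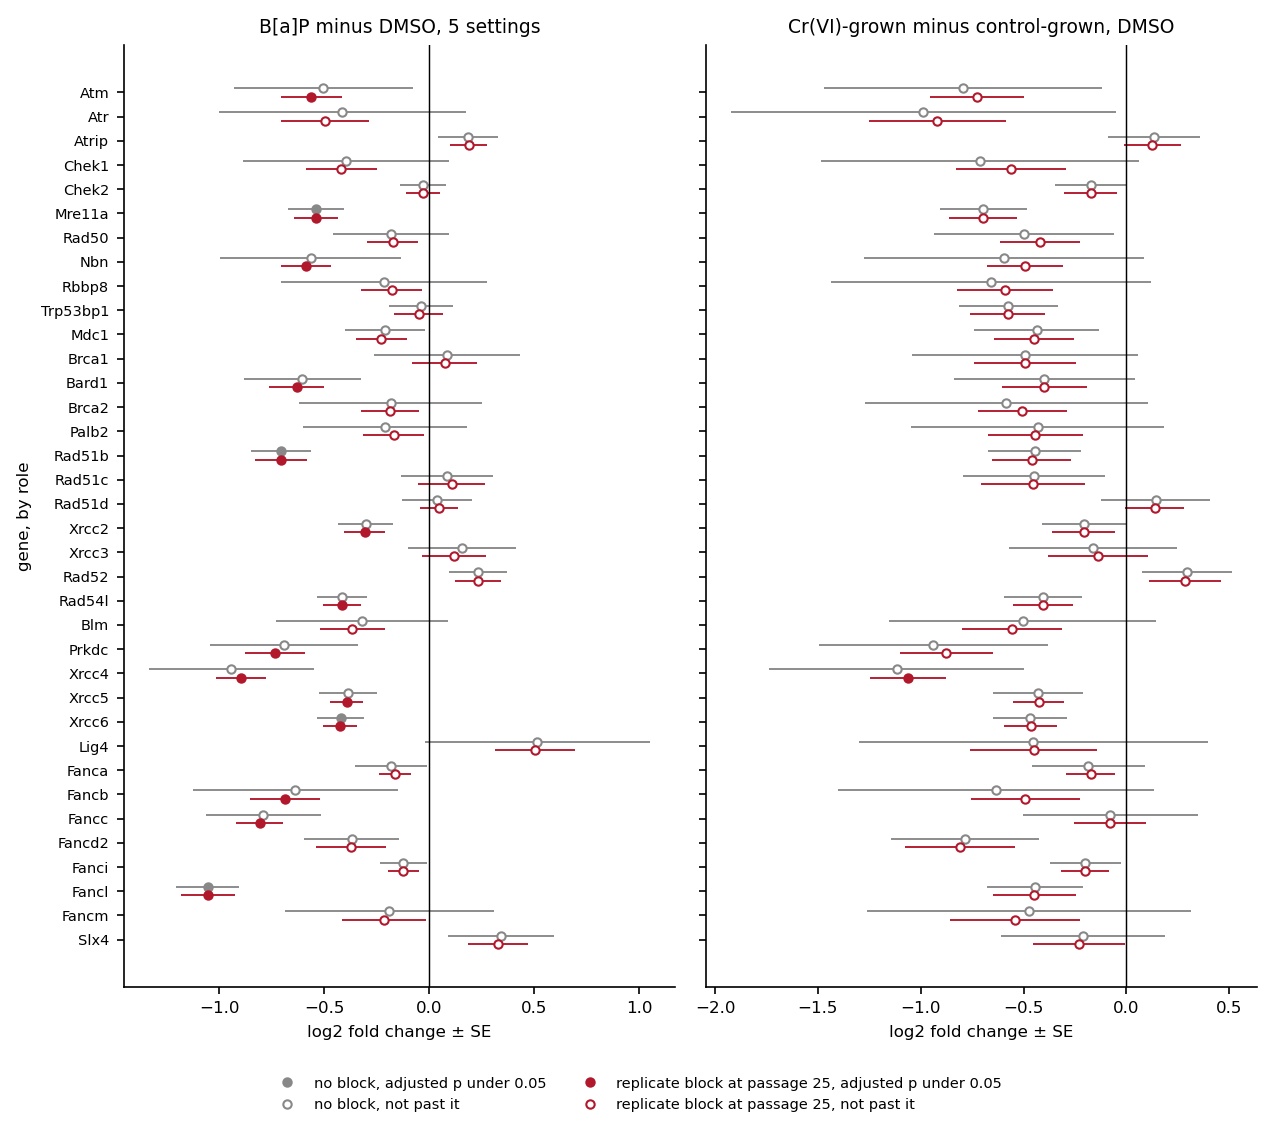
Log2 fold change with its standard error for each gene, by role, for B[a]P minus DMSO over the 5 settings (left) and for Cr(VI)-grown minus control-grown cells under DMSO (right). Grey marks the fit without a block, red the fit with the replicate block at passage 25, and filled points an adjusted p under 0.05; on the left 4 grey and 14 red points are filled, all below 0, and on the right only the red point of Xrcc4.

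Duplicates were closest in the control-grown cells of passage 20. A difference between DMSO and B[a]P was common there among all genes, with 30.3% called lower and 30% higher in the fit given below. Prkdc was at 14.5 and 13.9 CPM with DMSO and 5.42 and 4.38 CPM with B[a]P, Atm at 21.1 and 21.1 CPM against 9.62 and 8.23 CPM, and Atr at 20.0 and 19.8 CPM against 10.03 and 9.31 CPM. Fancd2 was at 21.7 and 20.0 CPM against 11.6 and 10.4 CPM, and Fancc at 9.19 and 9.07 CPM against 3.86 and 4.38 CPM. For each of these 5 genes both B[a]P libraries were far below both DMSO libraries.

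In a fit to these 4 libraries alone, added after the data had been seen, 25 members were lower and 4 higher, against 30.3% and 30% of all genes. The largest log2 differences were those of Xrcc4 and Prkdc, both -1.52, with SEs of 0.17 and 0.12, and the 4 higher genes were Rad51c (0.74 ± 0.22), Atrip (0.30 ± 0.09), Slx4 (0.26 ± 0.08) and Rad51d (0.25 ± 0.10). Brca1 was at 42.9 and 39.4 CPM against 36.2 and 29.4 CPM, a difference of -0.32 ± 0.10 with an adjusted p of 0.0186 in edgeR. Chek1 was at 14.9 and 13.9 CPM against 10.2 and 10.9 CPM, or -0.44 ± 0.10. The 2 DMSO libraries differed by a chi-square of 2.86 per gene and the 2 B[a]P libraries by 15.7, where sampling noise alone gives about 1 and the other 8 groups gave 41.7 to 934, so the spread behind these p-values is smaller than elsewhere in the series.

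By passage, the replicate block gave 12 lower members at passage 20, against 11% of all genes, and at passage 25 it gave 8 lower, against 6.64%, and 1 higher, against 7.98%. Fancc, Fancl, Nbn, Rad51b, Xrcc4 and Xrcc5 were lower at both passages. The higher gene of passage 25 was Lig4, at 0.86 ± 0.26 with an adjusted p of 0.0365 in edgeR; its B[a]P library was above the DMSO library of the same number in all 6 pairs of that passage, for example 9.0 against 7.84 CPM and 2.37 against 1.66 CPM in control-grown cells. At passage 20 Lig4 was at -0.03 ± 0.29 in the same fit. Sample names follow different series at passage 20 and at passage 25, so passage cannot be told apart from whatever else parts these series. The difference between the passages was called for no member, with or without the block, and was higher for Atm and Lig4 (5.56%) when the 2 libraries that stand apart were not used, near the 6.15% of all genes called higher there.

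By growth history, the replicate block gave 12 lower members in control-grown cells (8.31% of all genes), 3 in Cr(VI)-grown cells (5.08%), which were Fancc, Fancl and Rad51b, and 1 in recovered cells (0.586%), which was Fancl at -1.33 ± 0.29 with an adjusted p of 0.0386 in edgeR. The interaction, the B[a]P difference in Cr(VI)-grown cells minus that in control-grown cells, was called for no member and for 0% of all genes in edgeR, with 0 members and 60 genes at an unadjusted p under 0.05. Of the members 33 of 36 had an interaction above 0, while 42% of all genes were below 0. The members' median was 0.43 on the log2 scale against 0.09 for all genes tested. Without Cr(VI)-grown B[a]P replicate 1 of passage 25 it was 0.0045, with 18 members below 0, and without control-grown DMSO replicate 1 of passage 25 it was 0.17. The other fits without 1 library gave 0.26 to 0.66. With the block this median was 0.33. With the block and without the 2 libraries that stand apart, which are both of Cr(VI)-grown cells, it was 0.04, with 14 members below 0. In that last fit 12 members were lower with B[a]P in Cr(VI)-grown cells, against 10% of all genes, and the interaction was still called for none.

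Library by library, the median member was lower with B[a]P in 9 of the 10 pairs of libraries with the same number, by -0.15 to -0.60 on the log2 scale. The exception was replicate 1 of Cr(VI)-grown cells of passage 25, where the median member was 0.43 higher with B[a]P and 9 members were lower. The B[a]P library of that pair held 20.6 CPM of Atr and 37.6 CPM of Brca2, the highest value of either gene in all 20 libraries. Even so, 8 members were lower with B[a]P in all 10 pairs, against 6.26% of all genes: Fancl, Rad51b, Mre11a, Xrcc6, Xrcc4, Xrcc5, Fancc and Nbn. At passage 20 the replicate numbers do not pair the libraries, so the matching in 4 of the 10 pairs is by number only. For Nbn it matters, since its DMSO values of 16.01 and 10.25 CPM overlapped its B[a]P values of 11.2 and 8.80 CPM in Cr(VI)-grown cells. The other 7 genes had no overlap at passage 20, but they were picked as lower in all 10 pairs. The share of all genes with no overlap there was not counted. With the 2 libraries that stand apart not used and the replicate block, 24 members were lower and 1, Atrip, was higher, against 19.2% and 17.9% of all genes. This fit leaves out the B[a]P library of the pair in which the median member was higher, so its count is not independent of that choice.

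**Figure D4:**
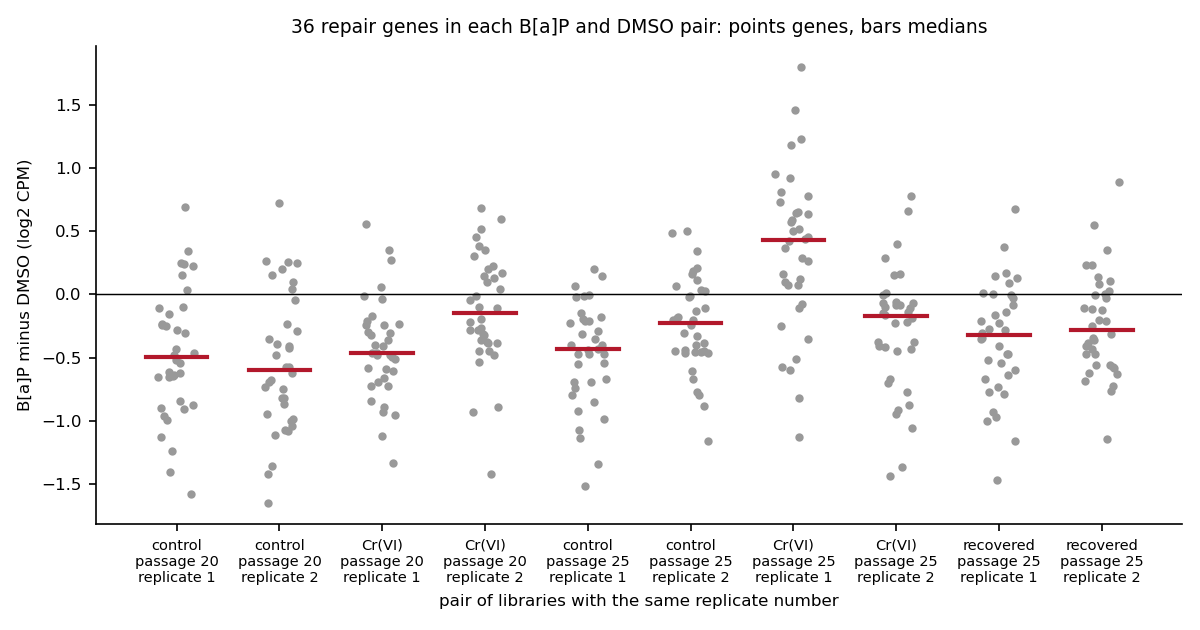
Log2 CPM with B[a]P minus with DMSO for the 36 genes (grey points) in each pair of libraries with the same growth history, passage and replicate number, with the median as a red bar. The median is below 0 in 9 pairs and above 0 in Cr(VI)-grown replicate 1 of passage 25.

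The values in the remaining libraries are given replicate 1 first, with DMSO against B[a]P. Xrcc6 was at 15.98 and 18.5 against 15.6 and 14.9 CPM in Cr(VI)-grown cells of passage 20. At passage 25 Xrcc6 stood at 23.3 and 26.1 against 16.8 and 19.7 CPM in control-grown, 19.1 and 19.7 against 12.6 and 17.3 CPM in Cr(VI)-grown and 24.1 and 25.03 against 15.2 and 15.1 CPM in recovered cells. For Xrcc6 the B[a]P libraries lay below both DMSO libraries in all 5 pairs of groups. The other Ku subunit, Xrcc5, was at 33.4 and 32.6 against 26.8 and 26.9 CPM in Cr(VI)-grown cells of passage 20. At passage 25 Xrcc5 stood at 37.1 and 43.5 against 32.8 and 39.6 CPM in control-grown, 36.9 and 40.4 against 24.7 and 38.1 CPM in Cr(VI)-grown and 39.1 and 58.6 against 25.8 and 39.8 CPM in recovered cells. The Xrcc5 groups overlapped at passage 25, although the B[a]P library was below the DMSO library of the same number in all 10 pairs. Prkdc was at 6.94 and 4.48 against 3.605 and 3.27 CPM in Cr(VI)-grown cells of passage 20. At passage 25 Prkdc stood at 11.2 and 4.06 against 6.39 and 2.65 CPM in control-grown, 6.54 and 3.71 against 10.3 and 1.94 CPM in Cr(VI)-grown and 12.7 and 4.13 against 7.61 and 2.78 CPM in recovered cells. For Prkdc 9 of 10 pairs were lower with B[a]P, and at passage 25 the groups overlapped.

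In the Fanconi group, Fancc was at 5.3 and 8.01 against 3.74 and 4.17 CPM in Cr(VI)-grown cells of passage 20. At passage 25 Fancc stood at 11.1 and 20.1 against 8.65 and 14.7 CPM in control-grown, 13.7 and 24.7 against 6.22 and 15.5 CPM in Cr(VI)-grown and 9.94 and 25.2 against 5.196 and 14.9 CPM in recovered cells. Fancc was lower with B[a]P in all 10 pairs, and its replicate 2 values at passage 25 were above those of replicate 1 in every group. Fancd2, the ubiquitin-accepting partner of Fanci, was at 14.3 and 4.77 against 8.79 and 6.09 CPM in Cr(VI)-grown cells of passage 20. At passage 25 Fancd2 stood at 17.02 and 14.9 against 15.4 and 11.4 CPM in control-grown, 14.9 and 8.65 against 16.1 and 7.79 CPM in Cr(VI)-grown and 20.04 and 12.3 against 14.4 and 11.3 CPM in recovered cells. It was lower with B[a]P in 8 of 10 pairs and higher in replicate 2 of Cr(VI)-grown cells at passage 20 and replicate 1 at passage 25.

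Of the checkpoint kinases, Atm was at 15.8 and 7.38 against 6.21 and 5.74 CPM in Cr(VI)-grown cells of passage 20. At passage 25 Atm stood at 17.6 and 4.69 against 12.03 and 3.96 CPM in control-grown, 9.7 and 3.78 against 15.1 and 2.75 CPM in Cr(VI)-grown and 13.9 and 3.86 against 12.4 and 2.56 CPM in recovered cells. Atr was at 10.5 and 5.89 against 6.87 and 4.89 CPM in Cr(VI)-grown cells of passage 20. At passage 25 Atr stood at 18.6 and 3.37 against 9.796 and 2.97 CPM in control-grown, 10.9 and 2.68 against 20.6 and 0.946 CPM in Cr(VI)-grown and 19.4 and 2.47 against 14.6 and 1.58 CPM in recovered cells. Both were lower with B[a]P in 9 of 10 pairs, the exception being replicate 1 of Cr(VI)-grown cells at passage 25. Chek1, the kinase that Atr activates, was at 10.8 and 5.27 against 7.83 and 7.57 CPM in Cr(VI)-grown cells of passage 20. At passage 25 Chek1 stood at 16.6 and 3.26 against 7.51 and 2.37 CPM in control-grown, 9.403 and 3.84 against 12.6 and 1.81 CPM in Cr(VI)-grown and 20.2 and 2.74 against 12.96 and 2.35 CPM in recovered cells. Chek1 was lower in 8 of 10 pairs.

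Among the recombination genes, Brca1 was at 47.01 and 19.1 against 35.6 and 28.97 CPM in Cr(VI)-grown cells of passage 20. At passage 25 Brca1 stood at 30.7 and 12.2 against 26.5 and 13.2 CPM in control-grown, 19.02 and 7.79 against 36.8 and 7.87 CPM in Cr(VI)-grown and 24.8 and 8.61 against 26.4 and 11.02 CPM in recovered cells. Brca1 was lower with B[a]P in 4 of 10 pairs, so the pairs shared no direction. Brca2 was at 20.2 and 14.6 against 10.4 and 10.5 CPM in Cr(VI)-grown cells of passage 20. At passage 25 Brca2 stood at 27.3 and 5.55 against 20.6 and 7.04 CPM in control-grown, 16.5 and 5.12 against 37.6 and 4.77 CPM in Cr(VI)-grown and 16.3 and 4.39 against 11.7 and 4.06 CPM in recovered cells. Brca2 was lower in 8 of 10 pairs. Rad54l, a motor protein of homologous recombination, was at 23.1 and 22.4 against 14.7 and 13.98 CPM in control-grown and 15.1 and 17.6 against 10.8 and 12.1 CPM in Cr(VI)-grown cells of passage 20. At passage 25 Rad54l stood at 19.1 and 20.4 against 14.1 and 14.9 CPM in control-grown, 15.6 and 15.8 against 16.5 and 13.6 CPM in Cr(VI)-grown and 13.5 and 18.9 against 11.1 and 13.6 CPM in recovered cells. Rad54l was lower with B[a]P in 9 of 10 pairs. Trp53bp1 was at 64.2 and 60.7 against 46.6 and 43.4 CPM in control-grown and 47.4 and 28.5 against 36.9 and 32.6 CPM in Cr(VI)-grown cells of passage 20. At passage 25 its values were 40.5 and 39.6 against 40.5 and 39.2 CPM in control-grown, 31.02 and 28.4 against 53.2 and 27.3 CPM in Cr(VI)-grown and 42.03 and 38.2 against 46.6 and 32.2 CPM in recovered cells. Trp53bp1 was lower in 7 of 10 pairs, and in control-grown cells its values were apart at passage 20 and nearly equal at passage 25.

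Growth in Cr(VI) without B[a]P was compared with control growth under DMSO, the question being whether long-term chromium alone moved these genes. No member passed without a block, and neither did any other gene (0%) in edgeR, while 4 members and 685 genes had an unadjusted p under 0.05. The members' median was -0.45 on the log2 scale against -0.03 for all genes tested, and 33 of 36 were below 0, against 52.3% of all genes. Without control-grown DMSO replicate 1 of passage 25 the median was -0.16 with 24 members below 0, and the other fits without 1 library gave -0.66 to -0.33. In all 4 pairs of libraries with the same number, which at passage 20 are matched by number only, 18 members were lower, against 15.1% of all genes, and none was higher in all 4.

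With the replicate block 1 member was lower, Xrcc4 at -1.06 ± 0.19 with an adjusted p of 0.0352 in edgeR, against 0.223% of all genes. Xrcc4 was at 5.17 and 4.40 CPM in control-grown and 1.78 and 1.74 CPM in Cr(VI)-grown DMSO libraries of passage 20, and at 7.43 and 1.66 CPM against 3.89 and 1.34 CPM at passage 25. The groups did not overlap at passage 20 and overlapped at passage 25, where the value within each replicate number was still lower after chromium. Xrcc4 and Xrcc5 were the 2 members lower at passage 20 alone with the block, against 0.432% of all genes, and Xrcc5 was there at 58.8 and 56.1 CPM against 33.4 and 32.6 CPM, a difference of -0.80 ± 0.17. Both passage 20 calls were lost in edgeR with the block and without the 2 libraries that stand apart (adjusted p 0.0644 and 0.101), where 0 members were lower against 0.0892% of all genes. They were also lost in a fit of the passage 20 libraries alone (0.0853 and 0.0959), with 0% of all genes called lower. At an unadjusted p under 0.05 in edgeR the fit of passage 20 alone had 15 of 36 members and 2673 of 13969 genes. DESeq2 on all libraries also called 0 members.

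The next members by p did not pass with the block: Mre11a at -0.70 ± 0.17 (adjusted p 0.0592 in edgeR), Prkdc at -0.88 ± 0.22 (0.0698), Xrcc6 at -0.47 ± 0.13 (0.0763) and Trp53bp1 at -0.58 ± 0.18 (0.0876). Trp53bp1 was at 64.2 and 60.7 CPM against 47.4 and 28.5 CPM at passage 20. The lower of these chromium values is from the library that stands apart, in which Fancd2 was at 4.77 CPM against 14.3 CPM in its partner. Without that library and with passage 20 alone, 10 members were lower, against 5.18% of all genes. This fit has 1 Cr(VI)-grown DMSO library, whose spread is assumed to be that of the other groups of passage 20. With both libraries that stand apart not used the block gave 4 lower over both passages, Xrcc4, Fancl, Xrcc6 and Prkdc, against 0.569%.

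Recovered cells were at a median of -0.10 on the log2 scale from control-grown cells under DMSO, against 0.04 for all genes tested. They were at a median of 0.32 above Cr(VI)-grown cells of the same passage, against 0.08 for all genes. In this second comparison 29 of 36 members were above 0, while 43.4% of all genes were below 0. Neither direction held when 1 library was left out. Against control-grown cells the median was 0.27 without control-grown DMSO replicate 1, 0.20 without recovered DMSO replicate 2, -0.39 without control-grown DMSO replicate 2 and -0.64 without recovered DMSO replicate 1. Against Cr(VI)-grown cells it was -0.29 without recovered DMSO replicate 1, with 20 members below 0, and 0.07 to 0.73 without 1 of the other 3 libraries. No member was called in either, with or without the block, and the comparisons share libraries. Xrcc4 was at 6.30 and 1.39 CPM in recovered cells, between the control-grown and Cr(VI)-grown values in each replicate number, and Mre11a at 23.0 and 25.3 CPM overlapped the control-grown values of 30.8 and 24.1 CPM.

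Genes of cell division moved beside the members. With B[a]P, 3.74% of all genes were lower and 3.86% higher without a block, and 13.5% and 13.4% with it. Of 30 proliferation genes 4 were lower with B[a]P without a block and 19 with it, none was higher, and their median was -0.38 without the block. After chromium their median was -0.20, above that of the members. Of 60 other genes of break repair, crosslink repair and checkpoint, 1 was lower with B[a]P without a block, and 13 were lower and 3 higher with it, with a median of -0.12, nearer to that of all genes than the members' median was. After chromium none of the 60 was called with or without the block, and their median without it was -0.22. The part of cell division in the members' values was not tested.

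The members are long genes, and the longer ones had the lower values with B[a]P. Their median genomic span, over all RefSeq isoforms, was 52.4 kb, against 20.6 kb for all genes tested with a span. For Xrcc6, Trp53bp1 and Fancc the promoter window used below lies inside this span. The span in use may thus be shorter, which could move a gene to another span class. Which isoforms were in use was not measured. Over the 36 genes the span and the log2 difference with B[a]P had a Spearman rank correlation of -0.57, and over 14292 genes one of -0.22, both as descriptions of points that share all libraries. By passage it was -0.63 over the members and -0.38 over all genes at passage 20, and -0.44 and -0.05 at passage 25, whose libraries carry another series of sample names. The 12 members of 10 to 30 kb had a median of -0.09, the 17 of 30 to 100 kb one of -0.37 and the 5 of 100 to 300 kb one of -0.69, where all genes of these spans had medians of 0.07, -0.02 and -0.36. The shortest member, Lig4 at 7.66 kb, was the one with the highest value, and the longest, Rad51b at 551 kb, was among the lowest, at a value close to the median of -0.84 for the 273 genes over 300 kb. After chromium the same rank correlation was -0.44 over the members and -0.47 over all genes. What span has to do with these values was not tested.

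**Figure D5:**
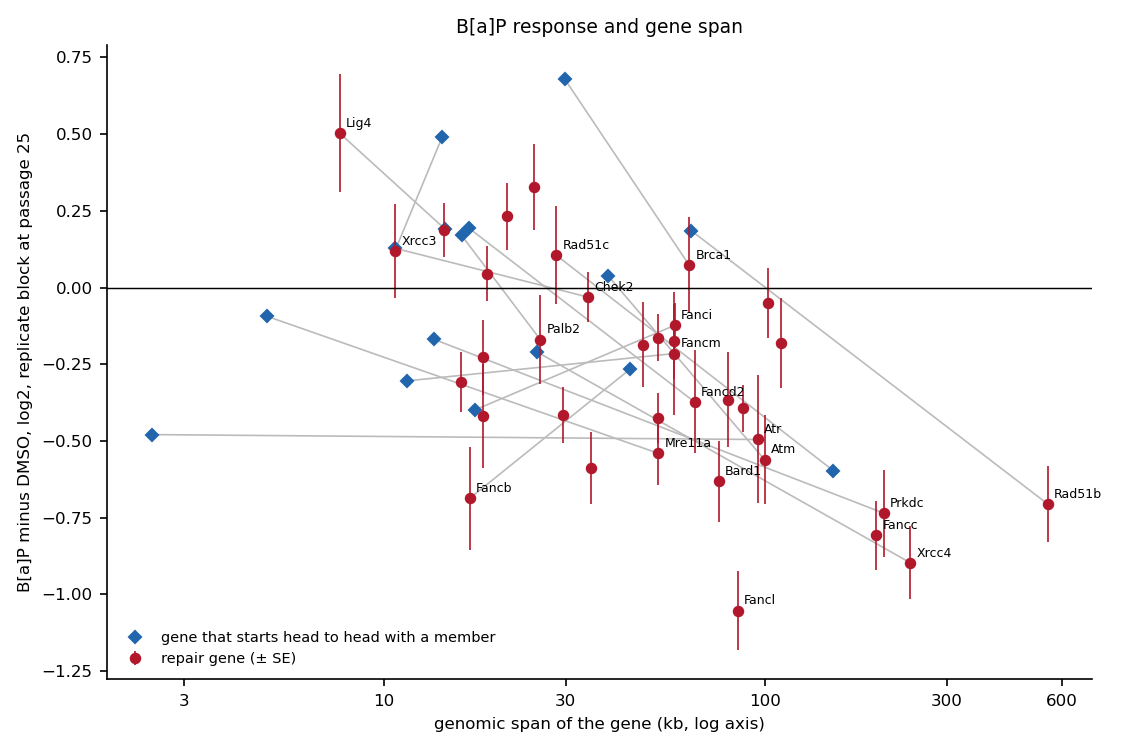
Log2 difference between B[a]P and DMSO, from the fit with the replicate block at passage 25, against genomic span in kb on a log axis, for the 36 repair genes (red circles with SE) and for the 16 genes that start head to head with one of them (blue diamonds, joined to it by a grey line). Lig4 lies at the top left, and Prkdc, Fancc, Xrcc4 and Rad51b lie low at the right.

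Head-to-head gene pairs, which start within 1000 bases of each other on opposite strands, allow a comparison of members with neighbours that share a promoter region, and 16 members have such a partner among the genes tested. The bases between the 2 starts are shown for 4 pairs: those of Mre11a and Xrcc4, which were lower with B[a]P, that of Lig4, the member with the highest value, and that of Brca1, whose partner Nbr1 was higher with B[a]P. They are written on the member's strand, 5′ to 3′, from RefSeq on GRCm38.p6, with CCAAT boxes (CCAAT or ATTGG) in capitals. The regions are chr9:14784574-14784653 (plus strand) for Mre11a, chr11:101551956-101552106 (minus) for Brca1, chr13:90089609-90089666 (minus) for Xrcc4 and chr8:9977681-9977716 (minus) for Lig4.
Mre11a, Ankrd49: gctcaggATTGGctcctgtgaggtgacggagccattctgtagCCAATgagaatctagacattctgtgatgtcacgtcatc
Brca1, Nbr1: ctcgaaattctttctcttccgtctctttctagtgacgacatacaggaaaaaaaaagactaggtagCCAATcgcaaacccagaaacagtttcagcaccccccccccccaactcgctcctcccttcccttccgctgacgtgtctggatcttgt
Xrcc4, Tmem167: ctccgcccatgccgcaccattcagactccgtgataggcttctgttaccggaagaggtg
Lig4, Abhd13: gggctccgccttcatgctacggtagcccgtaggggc

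Across the 58 bases between the starts, Xrcc4 was at -0.90 ± 0.12 with B[a]P and Tmem167 at -0.21 ± 0.08 on the log2 scale, with the replicate block. Mre11a was at -0.54 ± 0.10 and Ankrd49, 80 bases away, at -0.09 ± 0.19. Brca1 was at 0.07 ± 0.16, while Nbr1 was higher with B[a]P, at 0.68 ± 0.15 with an adjusted p of 0.00384 in edgeR. Prkdc at -0.74 ± 0.14 stood beside the replication helicase gene Mcm4 at -0.17 ± 0.10, Atm at -0.56 ± 0.15 beside Npat at 0.04 ± 0.22 and Rad51b at -0.71 ± 0.12 beside Zfyve26 at 0.19 ± 0.15. In each of these 6 pairs the member had the lower value and the longer span, with 241 kb against 25.3 kb for Xrcc4 and 205 kb against 13.5 kb for Prkdc. Over all 16 pairs the longer gene had the lower value in 12 with the block and in 11 without it, where Atr was a further exception. With the block Fancb was at -0.687 ± 0.168 over 16.8 kb and Mospd2 at -0.265 ± 0.316 over 44.3 kb. Fanci was at -0.123 ± 0.074 and the shorter Rlbp1 at -0.398 ± 0.319. Fancm was at -0.215 ± 0.201 and the shorter Fkbp3 at -0.304 ± 0.148. Xrcc3 was at 0.12 ± 0.153 and the longer Zfyve21 at 0.49 ± 0.116. The same share over all head-to-head pairs of the genome was not counted. The member was the longer gene in 12 of the 16 pairs, so length and membership cannot be told apart. The differences within pairs were not tested.

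RefSeq promoter windows, 250 bases before to 50 after the start, were matched for 29 of the 36 members and for 11156 genes tested. CCAAT, on either strand, was in 62.1% of the member windows and in 39.9% of all windows. The GC box GGGCGG was in 65.5% and 60.6%, the aryl hydrocarbon receptor core TNGCGTG in 6.9% and 7.9%, and the CHR element TTTGAA, known from cell cycle genes, in 3.4% and 12.8%. The E2F sites TTTGGCGC and TTTCGCGC were in none of the 29 windows and in 1.6% of all. The median GC content of the windows was 59.7% in members and 60.0% in all. These matches are a description of letters in 1 window per gene.

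Exons of 10 members overlap exons of a gene on the other strand, and the sources used here do not say whether counting used strand, so reads of both genes cannot be told apart there. These members are Atr, Fanca, Fancd2, Fanci, Fancl, Mre11a, Rad54l, Trp53bp1, Xrcc4 and Xrcc6. The overlap was longest for Trp53bp1 with Tubgcp4, at 1873 bases, and for Fancl it was 462 bases with Vrk2. Xrcc4 and Mre11a overlap their head-to-head partners by 112 and 104 bases.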

How the data were processed

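The deposited table holds raw counts per Entrez gene ID, and each of its 20 columns matched 1 sample by the labels. Tools in the submitters' processing notes are bcl2fastq, CASAVA 1.8, TopHat and DESeq, with the build mm10; the counting program, annotation and use of strand are not stated there. Passages follow the passage label, although titles of the passage 25 libraries carry another number. Symbols, spans and promoter windows are from RefSeq (GRCm38.p6) for 23275 of 23373 IDs, and transcript lengths from the longest GENCODE M21 basic transcript.

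The 36 members and all gene lists were chosen with earlier results of these data known. edgeR 4.0.16 (R 4.3.3) fitted 1 mean for each of 10 groups after filterByExpr and TMM scaling. Contrasts were tested two-sided by quasi-likelihood, with Benjamini-Hochberg adjustment over all 14343 genes at 0.05 and 10 residual degrees of freedom. SE is the absolute log2 fold change over the square root of F. CPM use TMM-scaled totals. Pairing was checked by correlating replicate 2 minus replicate 1 differences between groups: the 15 correlations lay between 0.812 and 0.916 at passage 25 and the 6 at passage 20 between -0.002 and 0.59, so the numbers pair the libraries of passage 25 only. The code was run on counts simulated with the same spread in every group, taken from the fit with a replicate block in each passage. That run does not check the p-values where the spread differs between groups, as it did here.

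Given library by library were members called in any comparison without a block, the 6 with the lowest p for B[a]P, the 4 for Cr(VI), and Atm, Atr, Chek1, Brca1, Brca2, Fancd2, Prkdc, Xrcc5 and Mre11a. Values of other members were chosen after they were seen. Alternatives were RLE scaling, no filter on low counts, DESeq2 1.42.0, a replicate block, only the groups compared, each library left out and, added after the data were seen, subsets of libraries.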

Additional observations from a re-analysis of the deposited data

How the results depend on the processing

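The numbers of members past the threshold depended on the replicate block and on which libraries were used, and so did those of all genes. For B[a]P over all settings, 553 of 14343 genes were higher and 536 lower without a block. With the block at passage 25 these numbers were 1919 and 1935, and with a block in each passage 2029 and 2027. With the block at passage 25 the member calls were 14 for B[a]P over all settings (4 without it), 12 in control-grown, 3 in Cr(VI)-grown and 1 in recovered cells, 12 at passage 20 and 9 at passage 25, and for Cr(VI) 1 over both passages and 2 at passage 20. With a replicate block in each passage they were 15, 12, 3, 1, 12, 10, 4 and 4 in the same order. DESeq2 gave 4 in control-grown, 1 in Cr(VI)-grown and 1 in recovered cells, 4 at passage 20 and 3 at passage 25. Without a filter on low counts 2 members passed for B[a]P over all settings and 0 in control-grown cells. Fits of only the groups compared gave 12 at passage 20 and 0 at passage 25. RLE scaling moved no count by over 1.5 times. It ended the call of Xrcc6 for B[a]P (adjusted p 0.052 in edgeR), as did no filter on low counts (0.177), which also ended that of Mre11a (0.0907).

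Of the subsets chosen after the data were seen, not using replicate 2 of passage 25 gave 12 calls over all settings, 2 in control-grown cells and 11 at passage 20. The block at passage 25 without the 2 libraries that stand apart gave 25 for B[a]P, 19 in control-grown, 12 in Cr(VI)-grown and 4 in recovered cells, 23 at passage 20, 17 at passage 25, 4 and 1 for Cr(VI) over both passages and at passage 25, and 2 for the difference between passages. Control-grown cells of passage 20 alone gave 29. Passage 20 alone gave 12 for B[a]P, and without Cr(VI)-grown DMSO replicate 2 it gave 27 for B[a]P and 10 for Cr(VI), against 0 for Cr(VI) with that library. Passage 25 alone with the block gave 8.

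Leaving out 1 library without a block gave 2 to 4 calls over all settings, 0 in control-grown cells, 0 to 1 in Cr(VI)-grown cells and 0 to 1 at passage 20. Brca1 with B[a]P turned to -0.14 without the 2 libraries that stand apart, and Trp53bp1 to 0.063 without replicate 2 of passage 25. The cause of these changes was not tested. With 2 libraries a group, a log2 difference of the size of the SE cannot be told from 0, and levels near 1 CPM, as for Rad51c, limit what can be seen.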
